A study of Mus musculus with 2 samples.

Results

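The genes described here are the voltage-gated sodium channel genes Scn2a, Scn3a and Scn9a, the epithelial sodium channel gene Scnn1a, the pacemaker channel gene Hcn4 and the sodium channel partner gene Fgf14. The 6 genes were taken by symbol, and 5 of them are among the 21888 genes listed in either of 2 count tables. Both tables come from adult α-gustducin-GFP mice on a C57BL/6J background, in which cells making the taste G protein subunit α-gustducin (gene Gnat3) are fluorescent. GFP-positive cells that excluded the dead-cell dye 7-AAD were sorted from tongue epithelium. One library held cells of the fungiform papillae (FP), at the front of the tongue, and the other held cells of the circumvallate papilla (CV), at its back. The labels name no treatment, and the sources used here do not give the number of animals behind each library. Cells with more than 500 genes and with ln(1 + 10000 × Gnat3/total) above 0.9 were kept, which left 21 of 29 FP barcodes and 32 of 61 CV barcodes. With 1 library for each papilla there was no replicate and no test was made. Every 95% interval below covers counting error only or, for shares of cells, only the draw of cells within 1 library. None covers variation between animals or libraries, and those of levels and ratios are too narrow if the counts hold PCR copies.

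Sweet, umami and bitter taste cells, the type II cells, fire sodium action potentials that open a channel for ATP, which they use as a transmitter. The large pore-forming alpha subunits of voltage-gated sodium channels carry the upstroke of these spikes, and Fgf14 is an intracellular fibroblast growth factor homologue that binds their tails and sets their availability. Hcn4 belongs to the hyperpolarization-activated channels that carry pacemaker current in heart and neurons, and Scnn1a is the alpha subunit of the amiloride-sensitive epithelial sodium channel, which is studied as a salt sensor in taste buds.

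Scn2a, Scn3a and Scn9a lie in 1 cluster on chromosome 2 and their coding sequences are much alike, which can bear on how reads from coding sequence are assigned. Over aligned coding bases, Scn2a and Scn3a were 84.3% identical, with 143 identical bases as their longest shared run. Scn2a and Scn9a were 78.2% identical and Scn3a and Scn9a were 79.0% identical, with longest runs of 101 and 184 bases. Untranslated sequence was not compared, and where in a transcript the reads lie was not examined. The sources used here do not say how reads that match several genes were treated, and the levels of these 3 genes carry that uncertainty.

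On GRCm38 (mm10), by the GENCODE annotation, Scn2a spans chr2:65620771-65767447, Scn3a chr2:65457118-65567627 and Scn9a chr2:66480080-66634962. Scnn1a spans chr6:125320659-125344943, Hcn4 chr9:58823412-58863175 and Fgf14 chr14:123977907-124677127. No annotated protein-coding gene overlaps any of the 6. Fgf14, Scn3a and Scn9a overlap 7, 1 and 3 noncoding genes or pseudogenes, and the sources used here do not say whether counting used strand.

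Counts in a kept cell ran from 193718 to 3190340 in FP and from 32726 to 3447628 in CV, with 22646953 and 29535917 counts over each set. The median number of genes in a cell was 6480 in FP and 5524 in CV. In CV 7 kept cells held fewer than 100000 counts, against 0 in FP. Mitochondrial counts reached 68.0% in a kept FP cell and 88.6% in a kept CV cell, and ribosomal RNA counts reached 1.46% and 79.0%. No barcode occurred in both libraries. Levels are in CPM (counts of a gene per 1000000 counts), pooled over the kept cells of a library unless a cell is named, and a gene is called on in a cell at 50 CPM or more. Gnat3 is itself a type II marker and chose the cells, so the label was checked on 7 other type II markers. In FP at least 4 of these were on in 19 of 21 cells and no cell had none on. In CV at least 4 were on in 27 of 32 cells and none was on in 2. Their sum had a median of 15051 CPM in FP, with a lowest cell at 4065 CPM, and of 13560 CPM in CV, with a lowest cell at 56.2 CPM. Of 9 type III taste cell markers, Pkd2l1, Car4, Ddc and Gad1 were at 0 in both libraries, and the summed list reached 20.9 CPM in an FP cell and 409 CPM in a CV cell. Of 17 keratinocyte markers, Dsc2 (465 and 150 CPM) and Krt10 (69.6 and 55.2 CPM) had the most counts in FP and CV. The summed list ran from 110 to 1957 CPM in FP cells, with a median of 634 CPM, and from 0 to 917 CPM in CV cells, with a median of 13.7 CPM.

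The papillae differed most in Fgf14, which was higher in FP, and in Scn2a, which was higher in CV. Hcn4 was also higher in FP, while Scn3a and Scnn1a had pooled levels within 2-fold of each other in the 2 libraries, and Scn9a was listed in neither table. A pseudocount of 10 CPM was added before taking log2 ratios, and it understates differences of low genes. By these ratios 2 of the 5 listed members stood 2-fold or more above CV in FP, and 1 stood 2-fold or more above FP in CV. Of all 10918 genes that reached 10 CPM in one library or both, 17% were higher in FP by that measure, 21% in CV and 38% in one or the other, so such a difference was common in these libraries. The median of these ratios, FP over CV, was 0.06 for the 5 listed members and -0.05 for all those genes.

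**Figure D1:**
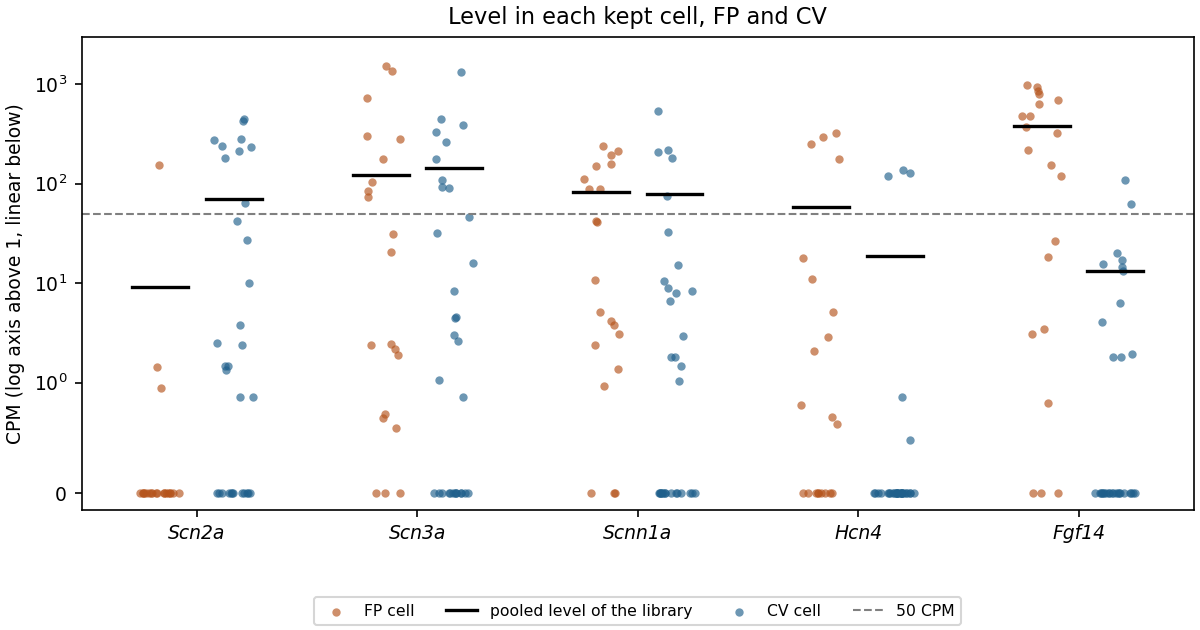
Level of 5 channel genes in each kept cell, in CPM on an axis that is logarithmic above 1 and linear below it. Each point is a cell (21 FP cells, 32 CV cells), black lines are the pooled level of the library and the dashed line is 50 CPM. Fgf14 points lie above the line in 13 FP cells and 2 CV cells, and Scn2a points in 1 FP cell and 9 CV cells.

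Scn2a encodes the channel known as Nav1.2, which carries spikes in axons of the brain. It was on mostly in CV cells. In CV its level ran from 0 to 449 CPM over the 32 cells, with a median of 1.47 CPM. It was on in 9 of them (28.1%, exact Clopper-Pearson interval 13.7% to 46.7%), at 63.9, 182, 214, 236, 238, 274, 281, 423 and 449 CPM. In FP the lowest and the median cell were at 0 and the highest was at 154 CPM, the only cell of 21 with Scn2a on (4.76%, interval 0.120% to 23.8%). Apart from that FP cell, the 20 others were at 1.44 CPM or below, so the upper ranges overlapped through 1 FP cell alone. Pooled, the levels were 9.05 CPM in FP (exact Poisson interval 7.86 to 10.4) and 70.8 CPM in CV (67.8 to 73.9), a CV level 7.82 times that of FP (exact conditional binomial interval 6.77 to 9.07). That one FP cell held 98.5% of the FP counts of Scn2a. In CV the cells with Scn2a on also had more of some other marker lists, though not of all. Summed type III markers had a median of 76.8 CPM in them against 2.94 CPM in the other CV cells, keratinocyte markers 165 against 6.06 CPM and neuron markers 36.8 against 1.47 CPM. Fibroblast and endothelium markers were at 0.896 against 0 CPM. The type II list was lower, at 16851 against 19994 CPM, and the type I and immune lists had medians of 0 in both. Depth also differed. Every CV cell with Scn2a on had at least 224021 counts, and the other CV cells include the 7 under 100000 counts. The part of these lists and of depth in the Scn2a level was not tested.

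Part of the Scn2a signal stood in another row. Both tables list Scn2a1 beside Scn2a, and RefSeq gives Scn2a1 as an older symbol of Scn2a. The Scn2a1 row was at 5.43 CPM in FP and 36.4 CPM in CV. It was on in 1 FP cell and 7 CV cells, each of which also had Scn2a on. Summed over both rows, Scn2a was at 14.5 CPM in FP and 107 CPM in CV, on in 1 and 10 cells, and the CV level was 7.40 times that of FP (6.60 to 8.32). The 2 rows did not keep 1 ratio. In the 10 cells with Scn2a on, Scn2a1 had between 0.0204 and 0.762 counts for each Scn2a count, with 147 Scn2a and 3 Scn2a1 counts in the cell of the lowest ratio and 63 and 48 in that of the highest. The sources used here do not say what sequence each row covers.

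Scn3a encodes Nav1.3, an alpha subunit best known from the developing nervous system. It was on in both papillae, in 9 of 21 cells of FP (42.9%, 21.8% to 66.0%) and in 9 of 32 of CV (28.1%, 13.7% to 46.7%). The FP cells ran from 0 to 1523 CPM with a median of 20.6 CPM, and the CV cells from 0 to 1314 CPM with a median of 2.83 CPM. The ranges overlapped almost fully, and each library had cells far above the rest. The 2 highest in FP, at 1523 and 1342 CPM, had 477338 and 211586 counts, and the highest in CV, at 1314 CPM, had 407215 counts, all below the median of the library. Mitochondrial counts made up 34.3% and 68.0% of those FP cells and 52.7% of that CV cell. The library medians were 11.1% in FP and 12.5% in CV. Pooled levels were 123 CPM in FP (118 to 128) and 143 CPM in CV (138 to 147), a ratio of FP over CV of 0.863 (0.822 to 0.905). The direction depended on the weighting of cells. The mean over cells was 223 ± 438 CPM (SD, n = 21 cells) in FP and 104 ± 253 CPM (SD, n = 32 cells) in CV, and on that basis the log2 ratio was 1.03 in place of -0.20. It was 0.50 when the deepest 10% of cells of each library were left out.

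Scn9a encodes Nav1.7, the alpha subunit of pain-sensing neurons. It was listed in neither table and was taken as 0, so no fold is given. The sources used here do not say whether the reference for counting held Scn9a. If it did, a count in 0 of 21 FP cells allows a share of up to 16.1% by the exact interval, and 0 of 32 CV cells allows up to 10.9%.

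Scnn1a had like pooled levels in the 2 papillae and a wider spread over CV cells. It was on in 8 of 21 FP cells (38.1%, 18.1% to 61.6%), at 87.8 to 240 CPM, and the FP median over all 21 cells was 10.7 CPM. In CV it was on in 5 of 32 cells (15.6%, 5.28% to 32.8%), at 75.4, 183, 208, 216 and 538 CPM, and the CV median was 1.24 CPM. The cell at 538 CPM, above every FP cell, held 31.8% of the CV counts. Pooled levels were 83.4 CPM in FP (79.6 to 87.2) and 79.4 CPM in CV (76.2 to 82.7), with a ratio of 1.05 (0.987 to 1.12). That interval leaves out the spread between cells. The log2 ratio of Scnn1a was 0.06 pooled, 0.54 by the mean CPM per cell and -0.05 without the deepest 10% of cells of each library. The beta and gamma subunits that make up the epithelial channel with Scnn1a were nearly without counts. Scnn1b had 87 counts, all in 1 FP cell at 51.5 CPM, which also had Scnn1a on, and was not listed for CV. Scnn1g was at 0 in FP and not listed for CV. In CV cells with Scnn1a on, the summed type III markers had a median of 225 CPM against 8.03 CPM in the other CV cells. Over all kept CV cells, Syt1, Otop1 and Ncam1 led that list. Keratinocyte markers had medians of 215 and 6.06 CPM in the same cells, and the type II list 23210.5 and 16980.3 CPM. Type I markers were at 0.480 against 0 CPM, and fibroblast and endothelium markers at 0.290 against 0 CPM. Neuron markers were lower, at 2.52 against 4.33 CPM, and the immune list had a median of 0 in both. The 5 CV cells with Scnn1a on each had at least 1191726 counts, and the other CV cells include the 7 under 100000 counts. The part of the markers and of depth in the Scnn1a level was not tested.

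Hcn4 was on in few cells of either papilla and was higher in those of FP. In FP it was on in 4 of 21 cells (19.05%, 5.45% to 41.9%), at 177, 253, 296 and 321 CPM. In CV it was on in 3 of 32 cells (9.38%, 1.98% to 25.02%), at 121, 129 and 137 CPM. Each of the 4 FP cells was above each of the 3 CV cells, and all other kept cells were at 17.9 CPM or below in FP and at 0.865 CPM or below in CV. Pooled levels were 57.6 CPM in FP (54.5 to 60.8) and 18.7 CPM in CV (17.1 to 20.3), a ratio of 3.09 (2.79 to 3.42) and a log2 ratio of 1.24. The log2 ratio was 0.91 without the kept cells of more than 50% mitochondrial or 10% ribosomal RNA counts or under 100 CPM of Trpm5, and 0.86 with no Gnat3 limit, both under the 2-fold line.

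Fgf14 had the widest difference of the 5 listed genes. In FP it ran from 0 to 985 CPM over 21 cells with a median of 220 CPM, and it was on in 13 (61.9%, 38.4% to 81.9%), at 120 CPM or more in each. In CV it ran from 0 to 108 CPM with a median of 0 over 32 cells and was on in 2 (6.25%, 0.766% to 20.8%), at 61.98 and 108 CPM. Every FP cell with Fgf14 on was therefore above every CV cell. The 8 other FP cells were at 26.4 CPM or below. Pooled levels were 379 CPM in FP (371 to 387) and 13.1 CPM in CV (11.8 to 14.5), a ratio of 28.9 (26.1 to 32.1) and a log2 ratio of 4.07. The cell with the most Fgf14 counts held 19.4% of those of FP, and with the highest cell of each library left out the log2 ratio was 4.15. Among cells with at least 100000 counts, whose median total was 1141644 in FP and 1115456 in CV, the share was 61.9% in FP and 8.0% in CV. After each cell was thinned to 71770 counts, which left 21 and 26 cells, it was 61.9% and 7.7%.

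The keratinocyte list was set beside Fgf14 across FP cells. Its summed level had a median of 886 CPM (199 to 1893) in the 13 FP cells with Fgf14 on and of 238 CPM (110 to 1957) in the other 8. Dsc2, a desmosome gene, had medians of 542 and 22.1 CPM in the same cells. Without Dsc2 the sum had medians of 151 and 170 CPM. Those of Krt13 were 30.9 and 32.6 CPM, and those of Krt10, which went the other way, were 4.37 and 1.83 CPM. Among FP barcodes that the Gnat3 limit left out, 7 had at least 5 of the 17 keratinocyte markers on, with summed levels of 57842 to 182226 CPM and a median of 1679949 counts, and Fgf14 was at 1.19 CPM or below in them. The part of keratinocyte RNA in the Fgf14 level was not tested.

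**Figure D2:**
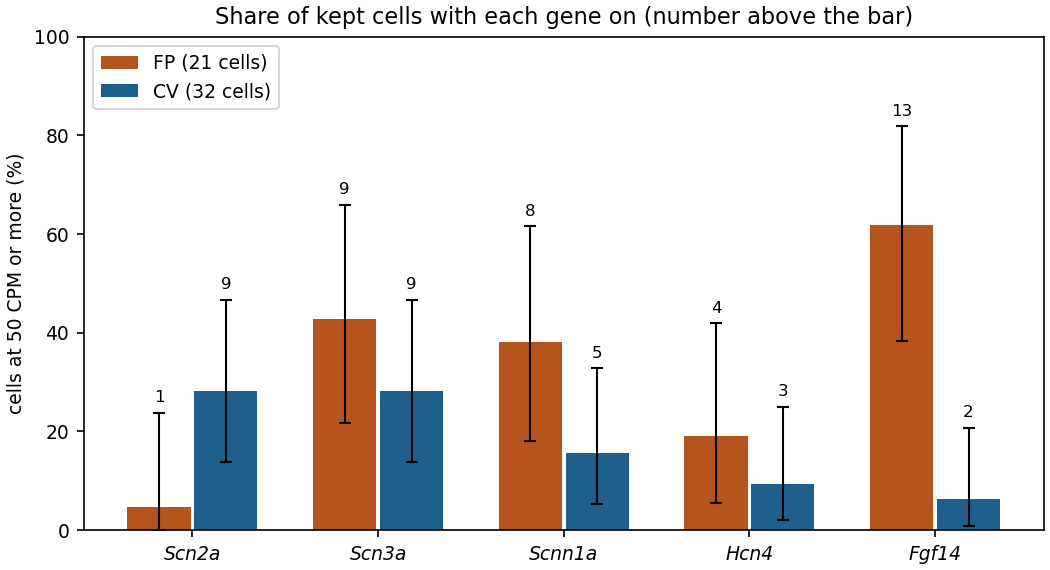
Share of kept cells with each gene at 50 CPM or more, in percent, for FP (21 cells) and CV (32 cells). Error bars are exact Clopper-Pearson 95% intervals over cells and the number above each bar counts the cells. The intervals of the 2 libraries are apart for Fgf14 (13 and 2 cells) and overlap for the other 4 genes.

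The limit of 50 CPM fell in a sparse range of the values. Just inside it were Scn3a at 73.9 and 85.0 CPM in FP and Fgf14 at 61.98 and Scn2a at 63.9 CPM in CV, and just outside were Scnn1a at 40.96 and 42.2 CPM in FP and Scn2a at 41.7 and Scn3a at 45.8 CPM in CV. At 1 count or more the genes were found much more widely. In FP, Scn3a, Scnn1a and Fgf14 each had a count in 18 of 21 cells and Hcn4 in 12, and in CV Scn2a had a count in 20 of 32 cells, Scn3a in 19, Scnn1a in 17, Fgf14 in 12 and Hcn4 in 5. Such low counts also occurred in barcodes with keratinocyte markers. In the 7 FP barcodes described above, Scn3a, Hcn4 and Fgf14 each had a count in 3 (42.9%) and Scn2a in 2 (28.6%), at a median of 1679949 counts against 1141644 in kept FP cells. None of these 4 genes was on in any of the 7, and the exact interval reaches to a share of 40.96%. Because such low counts were not limited to the kept cells, the counts of cells given below rest on 50 CPM. For Scnn1a that level does not set kept cells apart, because it was on in 5 of the same 7 barcodes (71.4%).

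Cell by cell, FP cells mostly had at least 1 of the genes on and most often a pair, whereas 16 of 32 CV cells had none. In FP 19 of 21 cells had any member on (90.5%, 69.6% to 98.8%). Of them 6 had 1 member on, 10 had 2 and 3 had 3. In CV 16 cells had any member on (50%, 31.9% to 68.1%), of which 8 had 1, 6 had 2, 1 had 3 and 1 had all 5. None of the 7 CV cells under 100000 counts had one on, and of the 25 deeper CV cells 16 did. The cell with all 5 had 1823119 counts, and whether any barcode held more than 1 cell was not tested.

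The makeup of these sets differed between the papillae. The commonest in FP were Scn3a with Fgf14 and Scnn1a with Fgf14, in 4 cells each, followed by Fgf14 alone in 3 and Scn3a alone in 2. In CV the commonest were Scn2a alone and Scn2a with Scn3a, in 3 cells each, followed by Scn3a alone and Scn3a with Scnn1a, in 2 each. A voltage-gated alpha subunit, Scn2a or Scn3a, was on in 42.9% of FP cells, 9 of 21 (21.8% to 66.0%), and in 40.6% of CV cells, 13 of 32 (23.7% to 59.4%). Among cells with at least 100000 counts these shares were 42.9% and 52%. Scn3a was on in all 9 of the FP cells, and Scn2a and Scn3a were on in 9 each of the 13 CV cells. Fgf14, whose protein binds such subunits, was on without either of them in 8 FP cells and 1 CV cell.

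The number of cells in which a pair of genes was on was set beside the number that the share of each would give. Scn2a and Scn3a were on together in 5 CV cells, against 2.53 if the 2 were independent over all 32 cells and 3.24 over the 25 cells with at least 100000 counts. Fgf14 was on in 5 of the 9 FP cells with Scn3a, against 5.57, and in 5 of the 8 with Scnn1a, against 4.95. Fgf14 and Hcn4 shared 1 FP cell, against 2.48, and Scn3a and Scnn1a shared 2, against 3.43. In CV these pairs went the other way. Over all 32 cells Fgf14 and Hcn4 shared 1, against 0.188, and Scn3a and Scnn1a shared 3, against 1.41. Over the 25 deeper CV cells the numbers if independent were 0.24 and 1.8. With so few cells these counts are a description of the 2 libraries.

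**Figure D3:**
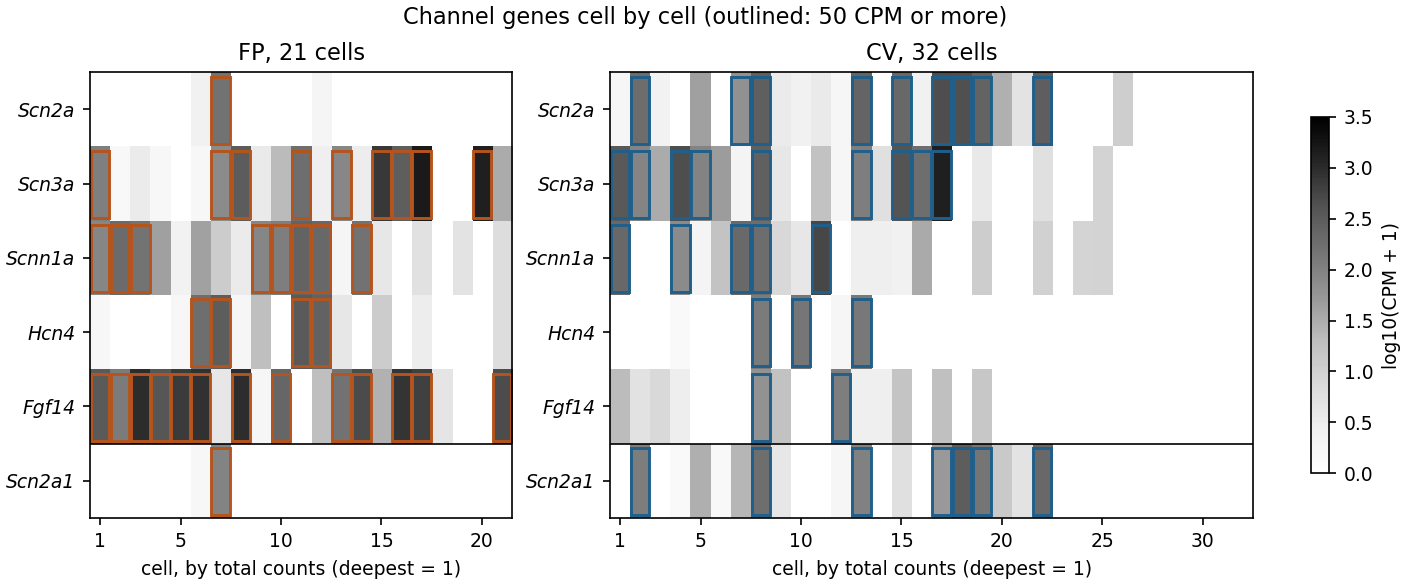
Level of each gene in each kept cell as log10(CPM + 1), with cells (columns) ordered from the deepest to the shallowest and a coloured outline where the level was 50 CPM or more. Below the line is the Scn2a1 row. Fgf14 outlines fill 13 of 21 FP columns, and the 7 CV cells with the fewest counts have no outline in the top 5 rows.

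Cells were also split by Tas1r3, which codes for the subunit common to sweet and umami receptors. This split does not part sweet and umami cells from bitter ones. A bitter receptor gene (Tas2r) was on in all 7 CV cells with Tas1r3 on and in 4 of the 8 in FP. Median totals with and without Tas1r3 on were 1271620 and 914630 counts in FP and 1100200 and 401621 counts in CV. In FP, Scn3a was on in 5 of 8 cells with Tas1r3 on and 4 of 13 without it, Hcn4 in 3 and 1, Scnn1a in 3 and 5 and Fgf14 in 5 and 8. In CV, Scn2a was on in 2 of 7 cells with Tas1r3 on and 7 of 25 without it, Scn3a in 3 and 6, Scnn1a in 1 and 4, Hcn4 in 1 and 2 and Fgf14 in 0 and 2. No gene was on in every cell of either class or, of those on in at least 5 cells of a library, in one class alone.

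Other genes of the same families were taken from lists of 55 genes in all, of which 46 were listed in either table and 22 had at least 10 CPM in either library. Of these 22, members included, 5 were at least 2-fold higher in FP, 6 in CV and 11 neither, with a median log2 ratio of 0.07. By the same measure 17% of all 10918 genes were higher in FP and 21% in CV. Of 10 voltage-gated alpha subunits, 6 were listed and only Scn2a and Scn3a had at least 10 CPM. Of the 4 beta subunits, which modulate the alpha subunits, Scn2b was at 0.795 and 0.8803 CPM, Scn3b was at 0 and the other two were not listed.

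Both measured fibroblast growth factor homologues, Fgf14 and Fgf11, stood 2-fold or more above CV in FP, as did 17% of all genes measured. Fgf11 was at 43.5 and 14.4 CPM, a ratio of 3.03, and was on in 4 FP cells and 2 CV cells. Fgf12 and Fgf13 were each under 3 CPM in both libraries.

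Of 16 anchors, partners and modulators, 9 had at least 10 CPM, of which 1 was higher in FP, 3 in CV and 5 neither. Over all genes measured, 17% were higher in FP and 21% in CV. Ank2, which codes for ankyrin-B, a membrane scaffold, was at 10.7 CPM in FP and 79.3 CPM in CV, a CV level 7.39 times that of FP. It was on in 1 FP cell and 9 CV cells. The calmodulin genes Calm2 and Calm3 were both within 2-fold, at 4422 and 220 CPM in FP and 2669 and 162 CPM in CV. The following were chosen after their values were seen. Ank3, which codes for ankyrin-G, the scaffold that anchors sodium channels in axons, was at 68.2 and 70.1 CPM. The sodium leak channel gene Nalcn was at 53.5 and 10.9 CPM, with 93.5% of the CV counts in 1 cell. Prss8, a protease that activates the epithelial channel, was at 7.77 and 28.1 CPM, and Pex5l, an auxiliary protein of pacemaker channels, was not listed for FP and was at 21.5 CPM in CV.

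Of the 5 measured type II genes of excitation and ATP release, 4 were within 2-fold in the 2 libraries. Of all 10918 genes measured, 38% were 2-fold or more higher in one or the other, so most genes were within 2-fold. Trpm5, the cation channel that starts the depolarization, was at 1952 CPM in FP and 1783 CPM in CV. Plcb2 was at 2930 and 2129 CPM, Itpr3 at 651 and 614 CPM and Trpm4 at 30.2 and 36.4 CPM. The fifth gene, Calhm1, was at 0.309 and 12.02 CPM, with 99.7% of the CV counts in 1 cell. Of 8 voltage-gated calcium channel genes only Cacna1c had at least 10 CPM, at 13.1 CPM in CV with 95.6% of the counts in 1 cell, against 1 count in FP. These last 2 genes were also chosen after their values were seen.

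**Figure D4:**
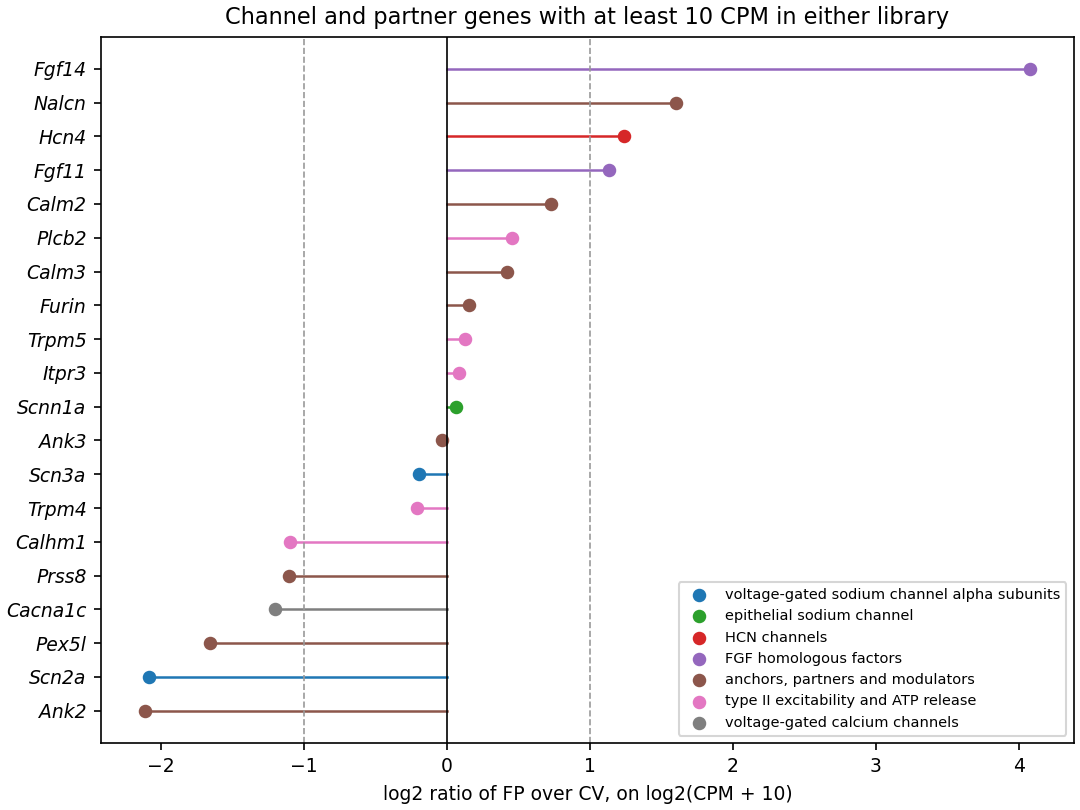
Log2 ratio of FP over CV on the log2(CPM + 10) scale for 20 of the listed channel, partner and type II genes that reached 10 CPM in one library or both, coloured by list, with dashed lines at 2-fold. Of those shown, Fgf14 has the highest ratio (4.07), and Ank2 (-2.11) and Scn2a (-2.08) the lowest.

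Genes whose levels went most alike with a member across cells were taken within a library, by Pearson's r of ln(1 + counts per 10000), for members on in at least 8 cells. These cells share a library, and their depth differs, so r is a description. For Scnn1a in FP, Pja2, a ubiquitin ligase gene, had r = 0.79 over 21 cells and was on in all 8 cells with Scnn1a on, among 13 in all. Ccdc129 (0.78) and Atp5o (0.73) followed. For Fgf14 in FP the leading genes were Hnrnpr (0.69), Polr2f (0.68) and Pip5k1b (0.67), and for Scn3a in FP they were Isg20l2 (0.56), Kansl2 (0.55) and Idh3g (0.55). In CV, over 32 cells, those of Scn3a were Zmym5 (0.75), Ctdsp2 (0.74) and Psmd1 (0.74), and those of Scn2a were Tmed8 (0.64), Syne1 (0.60) and Mtif2 (0.59). The leading genes of Scn3a differed between the papillae, and for each of the 5 sets only 1 of the 3 genes was also in the top 3 by Spearman's rho. Against these, the 99th percentile of r over 1819 genes tested in FP was 0.65 for Scnn1a, 0.57 for Fgf14 and 0.40 for Scn3a, and over 2238 genes in CV it was 0.49 for Scn2a and 0.58 for Scn3a.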

How the data were processed

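Sorted single cells were captured on BD Rhapsody beads and amplified by TAS-Seq, per the labels' protocols and the series design. Each deposited table gives unnormalized integer counts for every gene in every barcode, as its values show. Per the submitters' processing notes the authors worked on build mm10 with cutadapt 2.10, Seurat 2.3.4 and Bowtie2 2.3.4.1. The sources used here do not say whether molecular barcodes were collapsed, and intervals are too narrow if PCR copies were counted.

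Cells were filtered on genes and Gnat3 as the report states, with no mitochondrial limit and no doublet calling. Lowest Gnat3 in a kept cell was 377 CPM in FP and 173 CPM in CV. A gene missing from a table was taken as 0. Pooled counts became CPM, and ratios used log2(CPM + 10) for genes reaching 10 CPM in one library or both (Python 3.11.15, numpy 2.4.6, scipy 1.17.1). Scripts were tested on simulated data. The members, lists, markers and the 50 CPM level were chosen with earlier results of these data known. Named genes were the members, up to 4 genes of a list with at least 50 CPM or on in at least 3 cells, preferring the highest CPM, and the 3 genes of highest r for members on in at least 8 cells. Alternatives covered the cell filter, pseudocount, weighting of cells, depth, on level and leaving out cells. Hashtag libraries were not analysed here. A few list genes are left unreported here but stay in every count and median.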

Additional observations from a re-analysis of the deposited data

Results flagged for a closer look

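Both results here come from barcodes that the Gnat3 limit left out, which the comparisons of papillae do not use. Scnn1a was on in 5 of the 7 left-out FP barcodes with at least 5 keratinocyte markers on (71.4%, exact interval 29.04% to 96.3%), at 57.7 to 243 CPM, while Scn2a, Scn3a, Hcn4 and Fgf14 were at 3.26 CPM or below in all 7. The highest, 243 CPM, was close to the highest kept FP cell at 240 CPM. In kept FP cells with Scnn1a on the summed keratinocyte markers had a median of 359 CPM (174 to 1002), against 819 CPM (110 to 1957) in the others. In CV, Hcn4 reached 184 CPM in 1 of 24 left-out barcodes, above the highest kept CV cell at 137 CPM. That barcode had 282226 counts, 706 genes, 96.8% mitochondrial counts, Trpm5 at 1130 CPM and 2 counts of Gnat3. No other member was on in the 24 left-out CV barcodes.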

How the results depend on the processing

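No paired analysis was possible because each papilla has 1 library. Under 12 alternatives (13 for Scn2a) the log2 ratio of FP over CV ran from 2.77 to 4.75 for Fgf14 and from -2.90 to -1.03 for Scn2a, past 2-fold in each. It ran from 0.65 to 1.58 for Hcn4, past 2-fold in 9 of 12, from -0.47 to 1.03 for Scn3a and from -0.08 to 0.73 for Scnn1a. With 1 count or more as the level, the share of FP cells was 85.7% for Scn3a, Scnn1a and Fgf14, 57.1% for Hcn4, 100% for any member and 85.7% for 2 or more. In CV it was 62.5% for Scn2a, 59.4% for Scn3a, 53.1% for Scnn1a, 37.5% for Fgf14, 78.1% for any member and 62.5% for 2 or more. With no Gnat3 limit 30.4% of CV cells had any member on. In place of 2 members, 1 stood 2-fold or more above CV in FP with no Gnat3 limit, with a pseudocount of 50 CPM, and without cells of high mitochondrial or ribosomal RNA or low Trpm5, where 100% of FP cells had any member on. Of the channel list genes, in place of 5, 3 were higher in FP with no Gnat3 limit and 1 with a pseudocount of 50 CPM. In place of 6, 2 were higher in CV with that pseudocount and 3 with the mean CPM per cell. By the mean CPM per cell 20 channel list genes, in place of 22, were measured, and 19.5% of all genes were higher in CV. With no Gnat3 limit 16.8% of all genes were higher in FP. The pseudocount of 50 CPM lowers the ratios of all genes, and by it 2.97% of them were 2-fold or more higher in FP and 3.93% in CV. By Spearman's rho 1 of 3 genes most like Scn2a and Scn3a in CV, and Scn3a, Scnn1a and Fgf14 in FP, stayed in the top 3. The mean CPM per cell also moved the median log2 ratio of all genes to 0.21 and made Scn3a the third member at least 2-fold higher in FP, where 25.5% of all genes were. Summing the Scn2a rows, leaving out 4 kept CV barcodes whose numbers adjoin that of a deeper cell, and leaving out cells of high mitochondrial or ribosomal RNA or low Trpm5 were chosen after seeing the data.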
